A study of Mus musculus with 4 samples.

Results

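The Ly6 genes described here are Ly6a, Ly6c1, Ly6d and Ly6e, 4 neighbours on mouse chromosome 15 out of 24865 genes tested. They were taken because the Ly6a probe was far lower in Ifnar1-deficient intestinal stem cells, so their differences between genotypes are given as a description, without a test. All their probes were used, found by matching each probe's RefSeq accession to a gene symbol, which gave 5 probes: 1 each for Ly6a, Ly6d and Ly6e, and 2 for Ly6c1. Every probe had a single spot per array and was well above the scanner's background on all 4 arrays, with 0 saturated spots.

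The tested cells came from Ifnar1-/-:Lgr5ki mice, which lack a chain of the type I interferon receptor, and the control cells from Lgr5ki mice. Both genotypes carry the Lgr5-EGFP-Ires-CreERT2 knock-in, in which EGFP and CreERT2 are driven by the Lgr5 promoter, and the cells were sorted by flow cytometry and labelled Lgr5hi. All mice in both groups were given poly(I:C), an artificial double-stranded RNA that elicits interferon, at 2 mg/kg per day for 1 week, and no untreated sample was analysed here. There were 2 samples per genotype, and replicate 1 of both genotypes shared slide 1 while replicate 2 of both shared slide 2. Age, sex and inbred background are not given in the sources used here. The labels do not say that the 2 samples of a genotype came from separate animals, so any p-value below reflects only how far these samples spread, and that spread may be technical. Precision is limited throughout by having 4 arrays.

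Ly6 proteins are small cell-surface proteins built on a cysteine-rich three-finger fold, and most are held in the outer membrane leaflet by a glycosylphosphatidylinositol (GPI) anchor. Ly6a encodes Sca-1, the antigen long used to enrich mouse haematopoietic stem cells; interferons raise it in blood cells, and in the gut it marks regenerating, fetal-like epithelium after injury. Type I interferon binds IFNAR1 and IFNAR2 and acts through a complex containing STAT2 and IRF9, which binds interferon-stimulated response elements in target promoters.

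Ly6a, which encodes Sca-1, was lower in Ifnar1-/- cells on both slides. Its processed signal was 37.6 and 16.5 in Ifnar1-/- samples 1 and 2, against 1132 and 178 in control samples 1 and 2, in the scanner's linear units. The scanner's own error estimate on those signals was 4.63 and 2.86 in the Ifnar1-/- samples, against 113 and 18.0 in the controls. Both Ifnar1-/- samples lay below both controls, and the controls themselves differed more from each other than the Ifnar1-/- samples did. After each array was scaled to its own 75th percentile, the log2 signal averaged -3.29 ± 0.92 in Ifnar1-/- cells and 0.87 ± 1.90 in control cells (SD, n = 2 each). The difference, Ifnar1-/- minus control, was -4.16, or 17.9-fold lower, with -4.86 (29.1-fold lower) on slide 1 and -3.47 (11.1-fold lower) on slide 2. By this difference Ly6a was the 13th lowest of the 24865 genes tested. Control 1 exceeded control 2 by 6.46-fold on the scaled signal, and Ifnar1-/- 1 exceeded Ifnar1-/- 2 by 2.45-fold. The size rested in part on single samples: without control 1 the difference was -2.82, without control 2 -5.51, without Ifnar1-/- 1 -4.81 and without Ifnar1-/- 2 -3.52. With the background taken off by a convolution model (normexp) it was -2.65. In these bulk samples fewer Sca-1-positive cells and less Ly6a RNA per cell cannot be told apart.

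Ly6e, a broadly expressed family member known in mice as a receptor for the placental fusion protein syncytin-A and as a restriction factor for coronavirus entry, was also lower in Ifnar1-/- cells. Its processed signal was 4407 and 3865 in Ifnar1-/- samples 1 and 2, against 15144 and 8884 in control samples 1 and 2. The groups did not overlap, and the controls differed from each other by 1.73-fold on the scaled signal, less than either differed from the Ifnar1-/- sample of its slide. The scaled log2 signal averaged 4.08 ± 0.21 in Ifnar1-/- cells and 5.57 ± 0.56 in control cells (SD, n = 2 each). The difference was -1.49 (2.80-fold lower), with -1.73 (3.32-fold) on slide 1 and -1.24 (2.36-fold) on slide 2. It ranked 227th from the lowest.

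**Figure D1:**
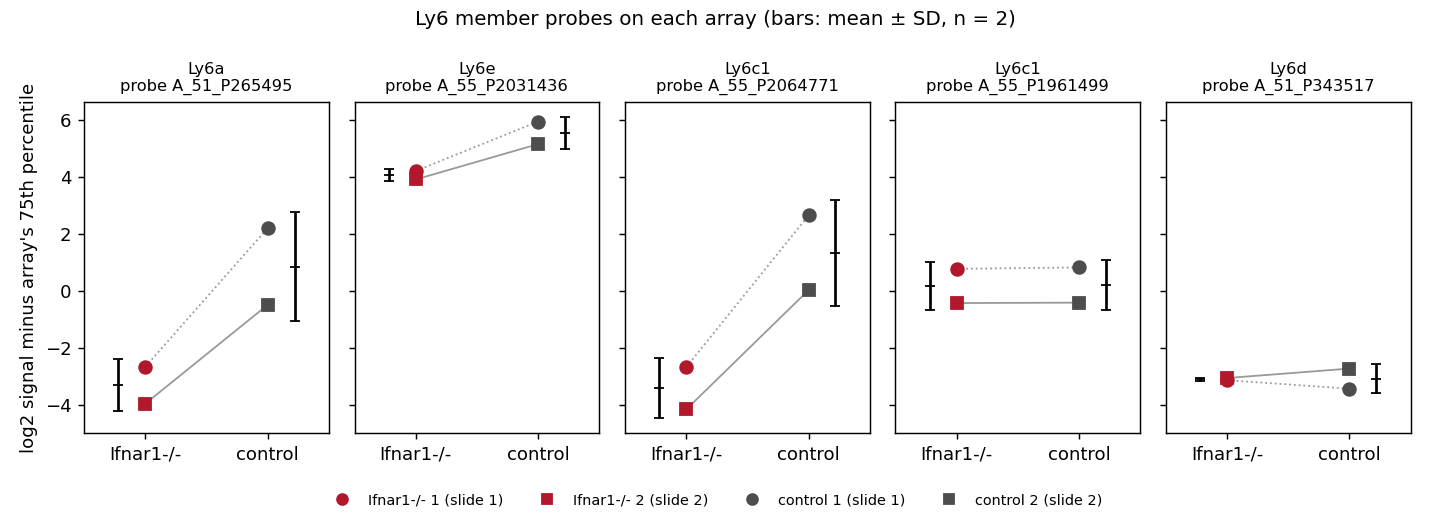
Scaled log2 signal of the 5 Ly6 probes in each sample, with Ifnar1-/- left of control in every panel. Circles are slide 1, squares are slide 2, a line joins the 2 samples of a slide and the bars give the mean ± SD (n = 2). Ly6a, Ly6e and 1 Ly6c1 probe fall well below their controls on both slides, while the other Ly6c1 probe and Ly6d do not separate the genotypes.

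Ly6c1 encodes a Ly6C antigen, found in mice on monocytes, some T cells and endothelium, and its 2 probes gave different answers. The probe that represents the gene by the brightest-probe rule (A_55_P1961499, transcript NM_001252058) had a processed signal of 407 and 191 in Ifnar1-/- samples 1 and 2, against 436 and 188 in control samples 1 and 2. The genotypes overlapped on that probe, and slide 1 was above slide 2 in both, by 2.30-fold in Ifnar1-/- cells and 2.35-fold in controls. Its difference was -0.03, with -0.05 on slide 1 and -0.01 on slide 2. The second probe (A_55_P2064771, transcript NM_001252055) had 37.2 and 14.4 in Ifnar1-/- samples 1 and 2, against 1543 and 254 in control samples 1 and 2. Both Ifnar1-/- samples lay below both controls there, in the same order of samples as for Ly6a. The difference on the second probe was -4.75 (27.0-fold lower), with -5.32 (40.0-fold) on slide 1 and -4.18 (18.2-fold) on slide 2. With normexp it was -2.99, and leaving out 1 sample at a time gave -6.07 to -3.44, the smallest size without control 1 and the largest without control 2.

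The gap between the 2 Ly6c1 probes was 4.72 on the log2 scale. It was the largest among 3773 named genes with at least 2 probes kept, whose median gap was 0.19 and of which 3.42% had a gap over 1. The average of the 2 probes gave a difference of -2.39 for the gene, so the value for Ly6c1 depends on which probe stands for it. The brightest-probe rule takes the highest mean over all 4 arrays, Ifnar1-/- samples included. In the controls alone the second probe was the brighter, with a mean scaled log2 signal of 1.36 against 0.23. Ly6c1 has close relatives in the cluster (Ly6c2, Ly6g and Ly6f among them), the probe sequences are not used here, and cross-hybridisation was not tested.

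How alike the promoters of these relatives are can be seen in the 300 bases around their starts, 250 before and 50 after, shown for Ly6c1 and for Ly6f, its relative with a probe on these arrays. The sequences are RefSeq's, build GRCm38.p6, given 5′ to 3′ on the gene's strand, from chr15:75048788-75049087 (minus strand) for the upstream of 2 Ly6c1 starts and chr15:75268171-75268470 (plus strand) for Ly6f.
Ly6c1: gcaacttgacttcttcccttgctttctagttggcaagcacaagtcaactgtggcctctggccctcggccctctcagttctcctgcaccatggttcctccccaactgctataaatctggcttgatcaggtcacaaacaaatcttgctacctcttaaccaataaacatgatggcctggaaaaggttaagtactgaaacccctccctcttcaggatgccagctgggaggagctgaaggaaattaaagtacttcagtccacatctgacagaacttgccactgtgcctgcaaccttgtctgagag
Ly6f: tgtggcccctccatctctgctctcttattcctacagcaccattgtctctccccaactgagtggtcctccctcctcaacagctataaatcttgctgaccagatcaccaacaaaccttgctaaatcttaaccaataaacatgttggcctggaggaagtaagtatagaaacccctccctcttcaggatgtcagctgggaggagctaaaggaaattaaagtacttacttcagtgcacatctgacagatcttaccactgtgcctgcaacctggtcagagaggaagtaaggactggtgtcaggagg
A global alignment matched 226 of 330 aligned columns between them (68.5%). The same Ly6c1 start matched Ly6g at up to 69.2% and Ly6c2 at up to 62.3%, and Ly6f matched Ly6g at up to 86.8%. The downstream Ly6c1 start matched Ly6f at 44.9%. Windows were fixed around each start, so an offset between starts lowers the identity, and low values do not show unlike promoters. The windows of the 2 Ly6c1 starts overlap on the chromosome, yet matched each other at only 44.5%. Between different genes among these 4, the 18 pairs of starts ran from 42.7% to 86.8% with a median of 58.2%. The 531 other pairs of family promoters ran from 40.3% to 75.8% with a median of 46.1%. Neither sequence holds, on either strand, GAAA repeated after any 2 bases or TTC and GAA with any 3 bases between them, the letters searched for further on. Ly6c1 is the only member among the 4 with an entry in the promoter table used here.

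Ly6d, which marks lymphoid progenitors committed to the B lineage and is also made by squamous epithelium, was near the low end of the measurable range and did not separate the genotypes. Its processed signal was 27.1 and 30.8 in Ifnar1-/- samples 1 and 2, against 22.8 and 37.8 in control samples 1 and 2. The Ifnar1-/- values lay between the controls. The difference was -0.02, with 0.30 on slide 1 and -0.33 on slide 2.

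At least 2-fold lower on both slides were 2 of the 4 genes, Ly6a and Ly6e, where 0.873% of all genes tested were that much lower. The Ifnar1-/- samples lay below both controls in the same 2 genes, against 11.5% of all genes. The members were chosen on this contrast, so nothing is read from those counts. The median difference over all genes was 0.02, with 0.03 on slide 1 and 0.02 on slide 2.

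The other genes of the Ly6/uPAR family give the wider view. Of 41 listed, 36 had a probe and 23 passed the filter of being well above background in both samples of at least 1 genotype. Of those 23, 3 were higher on both slides and 8 lower on both, where 33.9% of all genes tested were higher and 27.3% lower on both. By test, 0 passed in either direction by limma with Benjamini-Hochberg adjustment at 0.05, with or without the slide as a block. Across all genes the fit without the block called 0% higher and 0% lower (1.04% and 1.72% at an unadjusted p under 0.05), and the blocked fit called 0.0322% higher and 0.33% lower (7.31% and 4.93% at an unadjusted p under 0.05). The family's median difference was -0.18, with 0.02 on slide 1 and -0.09 on slide 2, and it was 0.00 when genes had to be well above background on all 4 arrays.

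Ly6f, the next measured gene after Ly6c1 along the chromosome, was well above background in both controls and in neither Ifnar1-/- sample. Its scaled log2 signal was -6.29 and -4.91 in Ifnar1-/- samples 1 and 2, against -1.09 and -3.61 in controls 1 and 2. The Ifnar1-/- samples lay below both controls. Ly6f was 4.43-fold lower with each Ifnar1-/- sample set to the lowest signal called above background on its array (or its own signal where higher). Some probes not called above background exceed that signal (Gml2 at -4.64 in Ifnar1-/- 2, where it was -4.74), so this is no strict limit. The fold so counted was 8.99 on slide 1 and 2.18 on slide 2, and it was 1.85 without control 1 and 10.6 without control 2. With the slide blocked, its adjusted p was 0.318 in limma with Benjamini-Hochberg adjustment. Its promoter aligned with that of Ly6c1 as given above, and whether probes of the cluster read one another's transcripts was not tested.

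Lypd8, made by the colonic epithelium, where it keeps flagellated bacteria away from the surface, had scaled log2 signals of 6.51 and 6.73 in Ifnar1-/- samples 1 and 2, against 7.74 and 7.01 in controls 1 and 2. The groups did not overlap, but the difference of -0.75 came mostly from slide 1 (-1.23 against -0.27 on slide 2). It did not pass the test (adjusted p of 0.318, limma with the slide block, Benjamini-Hochberg). Lypd11 was at -1.70, with -3.34 on slide 1 and -0.05 on slide 2, and was above background in 1 of 2 Ifnar1-/- samples. Ly6g5b was at -0.53 and Lynx1, which modulates nicotinic receptors, at -0.44, above background in 1 of 2 Ifnar1-/- samples. Cd59a, which blocks the complement membrane attack complex, was at 0.43, with 0.42 on slide 1 and 0.44 on slide 2. None of these genes passed the test. Psca, prostate stem cell antigen, was at 0.00, and Ly6i, which lies between Ly6e and Ly6a, had 0.62 on slide 1 and -0.38 on slide 2. Ly6k and Plaur, the urokinase receptor, were below background on all 4 arrays, and Ly6c2 and Ly6g had no probe named here.

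Genes of other families around the cluster spanned a narrower range of differences than the listed Ly6/uPAR genes. Of 24 such neighbours listed, 16 were tested, with 2 higher and 3 lower on both slides (33.9% and 27.3% of all genes) and 0 called by limma in either fit. Their median difference was 0.09 and they ran from -0.26 (Them6) to 0.31 (Arc). With genes required to be well above background on all 4 arrays, their median stayed at 0.09, against 0.00 for the family. On that filter all 16 neighbours remained, while the family lost its 2 lowest genes, Ly6f and Lypd11, and ran from -0.75 (Lypd8) to 0.43 (Cd59a). The neighbours with 1 sign on both slides were Naprt at 0.20, Gpr20 at 0.09, Mafa at -0.04, Eef1d at -0.17 and Tssk5 at -0.19.

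**Figure D2:**
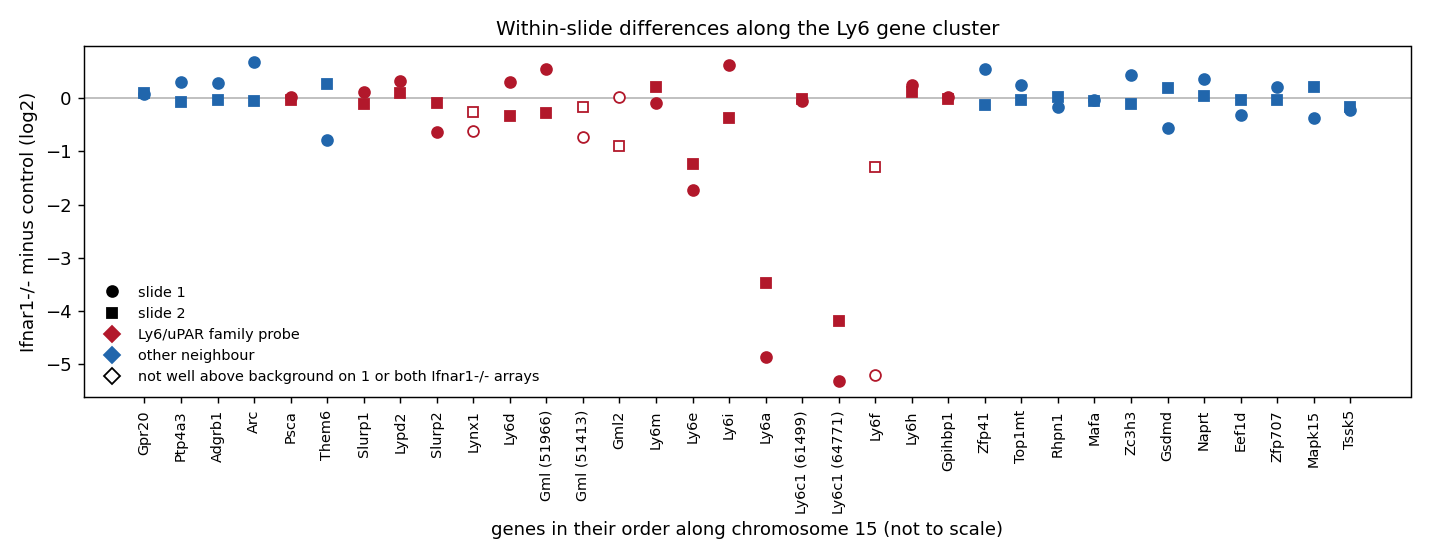
Difference in scaled log2 signal, Ifnar1-/- minus control, for each probe along the Ly6 cluster in chromosome order (not to scale), with circles for slide 1 and squares for slide 2. Ly6 and uPAR family probes are red, other neighbours blue, and open symbols mark probes not well above background in at least 1 Ifnar1-/- sample. Ly6a, Ly6e, 1 of 2 Ly6c1 probes and Ly6f stand below -1 on both slides, and the remaining probes lie around 0.

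The profile of Ly6a over the 4 samples was set against that of every named gene, by Euclidean distance after each profile was centred on its own mean. The median distance over 14800 named genes was 4.75. The 6 nearest genes by these values were Ifi204 (0.62), Rsad2 (0.64), Ifit1 (0.64), Trim30a (0.71), Mndal (0.95) and Trim30d (0.98). Ifi204 and Mndal belong to the p200 family of DNA-binding interferon-inducible proteins, Rsad2 encodes the antiviral enzyme viperin, Ifit1 binds viral RNA lacking a mature cap, and Trim30a and Trim30d belong to the tripartite-motif family. Ifi204, Ifit1 and Trim30a were not above background in either Ifnar1-/- sample and Mndal in only 1, so the order among these 6 is not measured. The second Ly6c1 probe, above background in all samples, lay at a distance of 0.61 from Ly6a. Among the 13864 named genes above background on all 4 arrays, the nearest were Rsad2 and Trim30d, followed by Ifit3 at 1.13. Ly6e was at 3.08, the first Ly6c1 probe at 4.26 and Ly6d at 4.89. These distances rest on 4 samples that share 2 slides, and are a description.

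Among those 6 genes, Rsad2 and Trim30d were above background in all samples, with differences of -3.57 and -3.68. Ifi204, Ifit1 and Trim30a were not well above background in either Ifnar1-/- sample. Counted as for Ly6f, they were 3.56-fold, 5.53-fold and 8.96-fold lower, again no strict limits. These values rest largely on control 1: without it they were 1.66-fold, 2.98-fold and 4.39-fold. Without control 2 they were 7.66-fold, 10.2-fold and 18.3-fold. Mndal was at -3.66 with 1 of 2 Ifnar1-/- samples above background. In each of the 6, control 1 was above control 2, as for Ly6a, and Ifnar1-/- 1 was above Ifnar1-/- 2 in Rsad2 and Trim30d, where both were measured. The 6 were picked for a profile like that of Ly6a, so this order is not a separate result.

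The promoters of these genes, which were picked for their likeness to Ly6a, were searched on both strands. An interferon-stimulated response element was taken as GAAA, any 2 bases and GAAA again. A gamma-activated site was taken as TTC, any 3 bases and GAA. The first occurs in 3.44% and the second in 8.30% of 32851 RefSeq promoters of 300 bases. Of the 6 genes 5 had an entry, all 5 held the first motif and 0 the second. Trim30a and Trim30d, of 1 family, hold the same matched letters, so the 5 are not independent of each other. The Irf7 promoter, searched in the same way, held neither motif, although Irf7 was at -4.35. The nearest 2 with all samples above background and Ifit1 with its pair of elements are shown, GRCm38.p6, 5′ to 3′ on the gene's strand, with capitals for the first motif, which in all 3 lies on the opposite strand. They lie at chr12:26456403-26456702 (minus) for Rsad2, chr19:34640639-34640938 (plus) for Ifit1 and chr7:104507800-104508099 (minus) for Trim30d.
Rsad2: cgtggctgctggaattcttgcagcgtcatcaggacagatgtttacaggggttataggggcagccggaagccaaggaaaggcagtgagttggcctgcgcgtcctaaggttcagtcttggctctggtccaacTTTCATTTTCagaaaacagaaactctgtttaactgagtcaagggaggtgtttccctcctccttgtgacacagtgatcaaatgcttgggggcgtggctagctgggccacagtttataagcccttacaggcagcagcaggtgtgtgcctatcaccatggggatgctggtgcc
Ifit1: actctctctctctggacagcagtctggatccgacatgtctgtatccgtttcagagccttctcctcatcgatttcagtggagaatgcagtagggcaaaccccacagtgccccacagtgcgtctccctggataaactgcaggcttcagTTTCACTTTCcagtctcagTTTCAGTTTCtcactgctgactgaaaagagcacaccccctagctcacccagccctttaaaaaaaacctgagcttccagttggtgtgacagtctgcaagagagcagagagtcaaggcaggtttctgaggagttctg
Trim30d: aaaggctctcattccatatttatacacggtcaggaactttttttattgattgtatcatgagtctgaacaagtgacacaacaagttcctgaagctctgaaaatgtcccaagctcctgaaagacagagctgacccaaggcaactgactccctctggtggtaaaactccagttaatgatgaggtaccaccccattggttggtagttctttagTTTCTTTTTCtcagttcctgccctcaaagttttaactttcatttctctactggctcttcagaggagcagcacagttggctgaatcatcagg
Counted from the start site, the match begins at base -120 in Rsad2, at bases -104 and -85 in Ifit1, and at base -41 in Trim30d. Of the 45 family genes, members included, 24 had a promoter entry, and 1 (Cd59a) held the first motif and 1 (Lypd10) the second. A match is a run of letters and not a shown binding site, and Ly6a, Ly6d and Ly6e had no entry to search.

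Genes of the interferon signal chain were measured on the same arrays. Ifnar1 itself, the deleted gene, was lower in Ifnar1-/- cells, with scaled log2 signals of -1.76 and -2.28 in Ifnar1-/- samples 1 and 2, against -0.21 and -0.37 in controls 1 and 2. Its difference was -1.73, with an adjusted p of 0.0497 in limma with the slide block and 0.478 without it (Benjamini-Hochberg). The sources used here do not say whether its probe lies in the deleted part. Irf7, the factor that amplifies type I interferon production, was at -4.35, with -4.91 on slide 1 and -3.79 on slide 2, and had an adjusted p of 0.0131 with the block and 0.224 without it (limma, Benjamini-Hochberg). Of the 13 receptor chains, kinases, STATs and interferon regulatory factors listed, all were tested, 10 were lower and 1 higher on both slides (27.3% and 33.9% of all genes), and those 2 genes were the ones called, only with the block. Stat2 at -1.15 and Irf9 at -0.92 did not pass. The list's median difference was -0.32.

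Sca-1 is also read as a mark of the repair state of the crypt, so other genes of that state were listed. Of 19, 11 passed the filter, 2 were higher and 2 lower on both slides (33.9% and 27.3% of all genes), and 0 were called by limma in either fit. Their median difference was 0.09 and they ran from -0.28 to 0.58. Ccn2, a YAP target, was at 0.58 with only 1 of 2 controls above background, Areg, an EGF receptor ligand, at 0.25, the keratin gene Krt7 at -0.25 and Anxa5 at -0.28. Clu, which marks revival stem cells, was at -0.38 on slide 1 and 1.18 on slide 2.

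The enzymes that build and attach the GPI anchor, by which Sca-1 is held at the surface, had differences on both sides of 0. Of 27 listed, 26 were tested, with 11 higher and 4 lower on both slides (33.9% and 27.3% of all genes) and 0 called by limma in either fit. The median difference was 0.11, and the genes ran from -0.49 (Pigh) to 0.43 (Dpm3), with Dpm1 at 0.37, Pgap1 at 0.34 and Pigc at 0.32.

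Markers of the sorted cells and of other cells that carry Ly6 proteins were summed on each array, in multiples of the array's 75th percentile. All 11 epithelial and all 11 measured Lgr5 stem cell markers were above background on every array, and the stem cell sum was 157 and 173 in Ifnar1-/- samples 1 and 2, against 155 and 172 in controls 1 and 2. The T and NK cell sum, over 13 measured markers of which 8 to 10 were above background, was 8.90 and 13.7 in Ifnar1-/- samples, against 8.68 and 12.0 in controls, and Cd3d, Cd2 and Ncr1 were below background on all arrays. The endothelial sum over 12 markers, 7 or 8 of them above background, was 7.91 and 8.14 in Ifnar1-/- samples, against 6.85 and 7.95 in controls, with Cdh5, Tie1 and Emcn below background throughout. The B cell sum over 7 markers was 0.77 and 0.86 in Ifnar1-/- samples, against 0.88 and 0.79 in controls, with Ms4a1 below background throughout. The fibroblast sum over 8 markers was 0.62 and 0.60 in Ifnar1-/- samples, against 0.42 and 0.61 in controls, with Pdgfra, Col1a1, Dcn and Lum below background throughout. None of the sums given so far was lower in the Ifnar1-/- sample on both slides, though the myeloid sum, given next, was. The stem cell, T and NK cell and endothelial sums were slightly higher there on both. Without Cd4, its brightest marker, the T and NK cell sum was lower on slide 1 (5.91 against 6.45 in the control). It was higher on slide 2 (8.51 against 6.65). The stem cell sum without Slc12a2 and the endothelial sum without Kdr stayed higher on both slides.

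The Paneth cell sum over 9 markers was 282 and 510 in Ifnar1-/- samples 1 and 2, against 918 and 1289 in controls 1 and 2. All 9 markers were lower in Ifnar1-/- cells on both slides (27.3% of all genes), 8 of them at least 2-fold (0.873%). By limma (Benjamini-Hochberg) 7 were called lower with the slide block (0.33% of all genes) and 0 without it. The enterocyte sum over 10 markers was 66.9 and 70.0 in Ifnar1-/- samples, against 46.7 and 54.9 in controls. Fabp2 carried most of it, and without Fabp2 the other 9 summed to 5.93 and 6.46 in Ifnar1-/- samples, against 6.02 and 6.55 in controls. By marker, 7 of the 10 were higher and 3 lower on both slides (33.9% and 27.3% of all genes). Alpi was at 1.14 and Apoa4 at 0.80, while Anpep was at -0.90. Lct, among the higher, was above background in only 1 of 2 controls. The myeloid sum over 11 markers was 232 and 347 in Ifnar1-/- samples, against 238 and 358 in controls. Without Itgam, which carried most of it, the sum was 27.6 and 22.4 in Ifnar1-/- samples, against 32.1 and 29.1 in controls. Csf1r, at -0.07, made up most of that remainder, and Lyz2 most of its gap between genotypes. Of the 7 markers tested, 4 were lower and 0 higher on both slides (27.3% and 33.9% of all genes). Cd68, Adgre1 and Fcgr3 differed in sign between the slides. On that list Lyz2, a lysozyme gene, was at -2.64 (adjusted p of 0.0083 in limma with the slide block and 0.293 without it, Benjamini-Hochberg), while Cx3cr1, S100a8, S100a9 and Mpo were below background on all arrays. The part of the Paneth, enterocyte, myeloid and Lyz2 differences in the Ly6a and Ly6e values was not tested.

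**Figure D3:**
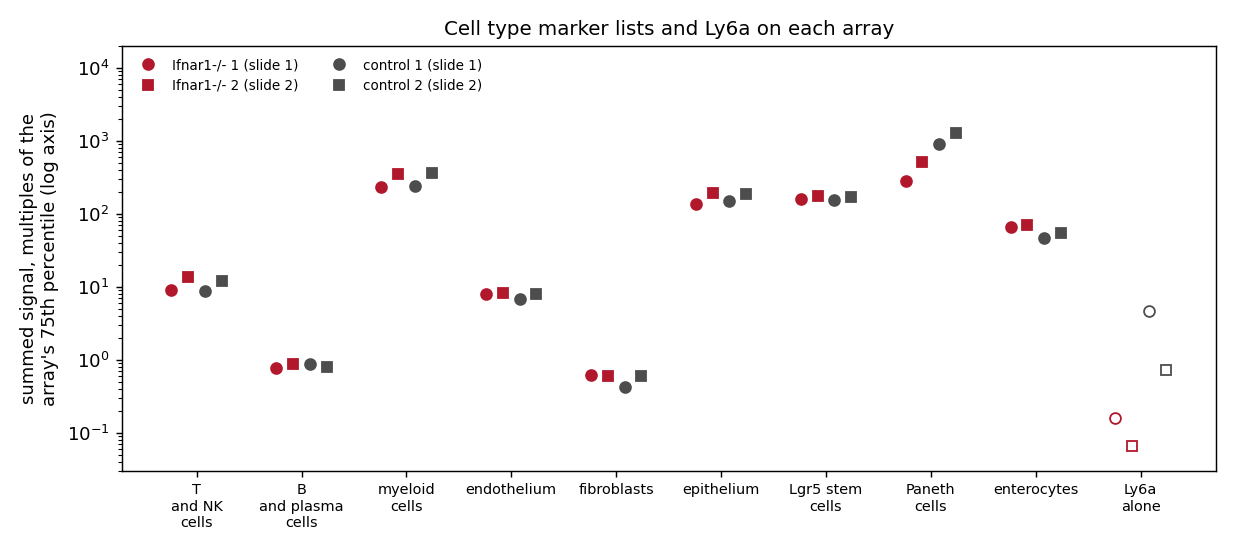
Summed signal of each cell type's markers on a log axis, in multiples of the array's 75th percentile, with Ly6a alone as open symbols; Ifnar1-/- samples are red and left of the grey controls, circles slide 1 and squares slide 2. Lymphoid, endothelial and Lgr5 stem cell sums overlap between genotypes, the Paneth sum is lower in Ifnar1-/- cells, the higher enterocyte sum there is carried by Fabp2, and Ly6a is lower in Ifnar1-/- cells on both slides.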

How the data were processed

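RNA of 4 samples was amplified, labelled with Cy3 and hybridised to single-colour Agilent mouse arrays, per the labels' protocols. Each deposited scanner table gives spot intensity, linear and with background removed by the scanner software. That software was Agilent Feature Extraction, version 12.0.3.1 in the headers and 11.5.1.1 in the submitters' processing notes. The authors' deposited series table was the same intensity times 1 constant per array (5.60 to 6.68) and served as an alternative. Its column medians were 239 and 223 in the Ifnar1-/- samples and 249 and 231 in the controls, its values are linear and not centred on genes, and the target of its scaling is unknown.

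Control spots and outlier-flagged spots (111 to 172 per array) were left out. Log2 signal minus the array's 75th percentile was analysed. Probes well above background in both samples of at least 1 genotype were kept, 35421 of 55681. Between 63.3% and 67.7% of spots were well above background per array. Accessions matched to RefSeq (GRCm38.p6) named 28331 probes, and the brightest probe stood for a gene.

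Genes were compared with limma 3.58.1 in R 4.3.3 (intensity trend, Benjamini-Hochberg), without and with the replicate number, which is the slide, as a block. Slide-mates deviated together: over genes, Ifnar1-/- 1 minus Ifnar1-/- 2 correlated with control 1 minus control 2 at r = 0.563. Genes were named by a rule: the members, Ifnar1, up to 5 genes per list with the largest difference and 1 sign on both slides, a few fixed family genes and the 6 profiles nearest to Ly6a. Clu, Cd59a, Lyz2 and the extremes of lists were named after their values were seen. Some genes the rule names are not reported here. Members and lists were chosen with earlier results of these data known.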

Additional observations from a re-analysis of the deposited data

How the results depend on the processing

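Ly6a was at -4.16 and stayed between -4.21 and -2.65 under the other settings, with the smallest size, -2.65, under normexp with an offset of 50. Leaving out each sample gave -5.51 to -2.82. The Ly6c1 difference of -0.03 became -2.39 when its 2 probes were averaged, and leave-one-out values ran from -0.65 to 0.59. Ly6e ranged from -1.55 to -1.45 and from -1.88 to -1.09 with a sample left out, and Ly6d from -0.37 to 0.34. With the replicate block, which leaves the differences as they are and changes only their errors, limma called 8 genes higher and 82 lower, against 0 and 0 without it. With the block and no intensity trend it called 0 and 0. Over all 4 samples the calls for Ifnar1, Irf7, Lyz2 and 7 Paneth markers therefore rest on the block with the trend. Leaving out a sample gave 0 to 5 genes higher and 9 to 80 lower: 27 lower without control 1, 61 without control 2, 9 without Ifnar1-/- 1 and 80 without Ifnar1-/- 2, with the filter applied again to the remaining arrays and the lone sample assumed to vary like the other genotype. The median of the other family genes was -0.06 under normexp, -0.09 with no filter and -0.03 without Ifnar1-/- 1. Medians of the neighbours and the repair genes changed sign when single samples were left out (-0.14 to 0.22 and -0.18 to 0.18). Low signal limits Ly6a and the second Ly6c1 probe in Ifnar1-/- cells, where the lowest scaled signal called above background was -4.26 and -4.74. Normexp ran on the median signal, since the mean signal is not used here.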

Other observations

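Gml, another Ly6-related gene of the cluster, also had 2 probes kept apart by sign on slide 1. Probe A_51_P451966 was at 0.54 on slide 1 and -0.28 on slide 2, and probe A_55_P2151413 at -0.73 on slide 1 and -0.17 on slide 2, well above background in 1 of 2 Ifnar1-/- samples.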
